A study of Mus musculus with 6 samples.

Results

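The 10 genes described here encode the core transcription factors of red cell development and their cofactors: Gata1, Gata2, Zfpm1, Tal1, Lmo2, Ldb1, Lyl1, Klf1, Gfi1b and Nfe2. They were taken by gene symbol from a fixed set of names, and all 10 of 10 were present among the 37620 genes of the deposited tables. They were measured by RNA sequencing in mouse fetal liver BFU-E (burst-forming unit erythroid cells), the earliest progenitors committed to the red cell line. Cells came from E14.5 embryos of strain 129/SvImJ, were depleted of cells with lineage markers, Sca-1, CD16/32, CD41 or CD34, and were sorted as c-kit positive cells among the 10% with the lowest CD71. All groups shared a serum-free medium to which SCF (100 ng/mL), IGF-1 (40 ng/mL) and Epo (2 U/mL) had been added. The 3 groups of 2 libraries each were untreated cells, cells with 100 nM dexamethasone (Dex), and cells with 100 nM Dex plus 10 µM GW7647. Dex activates the glucocorticoid receptor, and GW7647 activates PPARα, a receptor for fatty acids that also acts in the nucleus. No group had GW7647 alone. The labels give 12 h of treatment, whereas column headers of 1 table carry 36 h, and they give no culture time for untreated cells. They do not say whether the libraries of a group came from separate cultures or pools of embryos, so the p-values below measure the spread between these libraries, which may be technical.

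As background, GATA1 and GATA2 are zinc finger proteins that bind GATA motifs in DNA, and GATA1 takes over sites from GATA2 as erythroid progenitors mature. TAL1, or its close relative LYL1, pairs with an E protein on E-box motifs, and LMO2 and LDB1 bridge this pair to GATA1 and to distant enhancers. ZFPM1 (FOG1) is the cofactor that GATA1 needs for many of its targets, KLF1 binds CACCC motifs of globin and other red cell genes, GFI1B is a repressor, and NFE2 pairs with small MAF proteins at globin control regions.

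The libraries held between 35970286 and 54174801 counts, and the members had between 4282 and 20576 counts in a library, for which counting error alone is 1.53% and 0.697%. Counting error covers sampling of reads only. Each of the 8 erythroid markers checked, among them Epor, Kit, Tfrc, Slc4a1, Alas2, Hbb-bs and Hba-a1, was measured in all groups, and their sum was 2071168 to 2179633 normalized counts in untreated libraries and 937586 to 970105 in the 4 treated ones. The globin genes Hbb-bs and Hba-a1 made up most of that sum in every group. The 8 markers did not all move alike, with 6 lower and 1 higher with Dex against untreated. The globin share of counts was 6.48% and 7.15% without drug and 2.75% to 3.12% with Dex or both drugs. The mitochondrial share was 1.72% in replicate 1 of Dex, against 2.46% to 2.88% elsewhere. Summed markers of other cells also differed between groups. Megakaryocyte markers (12 genes) summed to between 48393 and 51362 normalized counts in untreated libraries, 23498 to 25840 with Dex, and 17497 to 17679 with both drugs. Granulocyte and monocyte markers (10 genes) summed to 16663 to 17581, 7602 to 7872, and 4719 to 4821 in the same order. Mast cell and basophil markers (9 genes) summed to 6209 to 6227, 9791 to 10132, and 5655 to 5757. Endothelial markers (4 genes) summed to 846 to 895, 420 to 471, and 246 to 264. Hepatoblast markers (4 genes) summed to 17.3 to 22.0, 191 to 196, and 120 to 128, most of it Apoa1 with Dex or both drugs. In bulk samples, fewer cells of a type and less RNA per cell cannot be told apart.

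Every member stayed expressed with Dex, and the balance among them differed from that in untreated cells. The labels give no culture time for untreated cells. In both comparisons with them, drug and time in culture therefore cannot be told apart. Lmo2, Nfe2, Tal1, Zfpm1 and Gata1 fell and Ldb1, Gata2 and Gfi1b rose, while Klf1 and Lyl1 did not pass the test. Adding GW7647 to Dex lowered Gata2, which then stood close to its untreated level, and Lmo2 and Tal1 fell with both drugs against untreated cells too. All called differences of members were under 2-fold, and the largest, those of Lmo2 and Nfe2 with both drugs, were falls of 0.73 on the log2 scale. Normalized counts here are read counts after TMM scaling (the trimmed mean of M values). Adjusted p-values come from edgeR (quasi-likelihood, Benjamini-Hochberg over 14125 genes, threshold 0.05), and ± after a log2 difference is its SE.

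**Figure D1:**
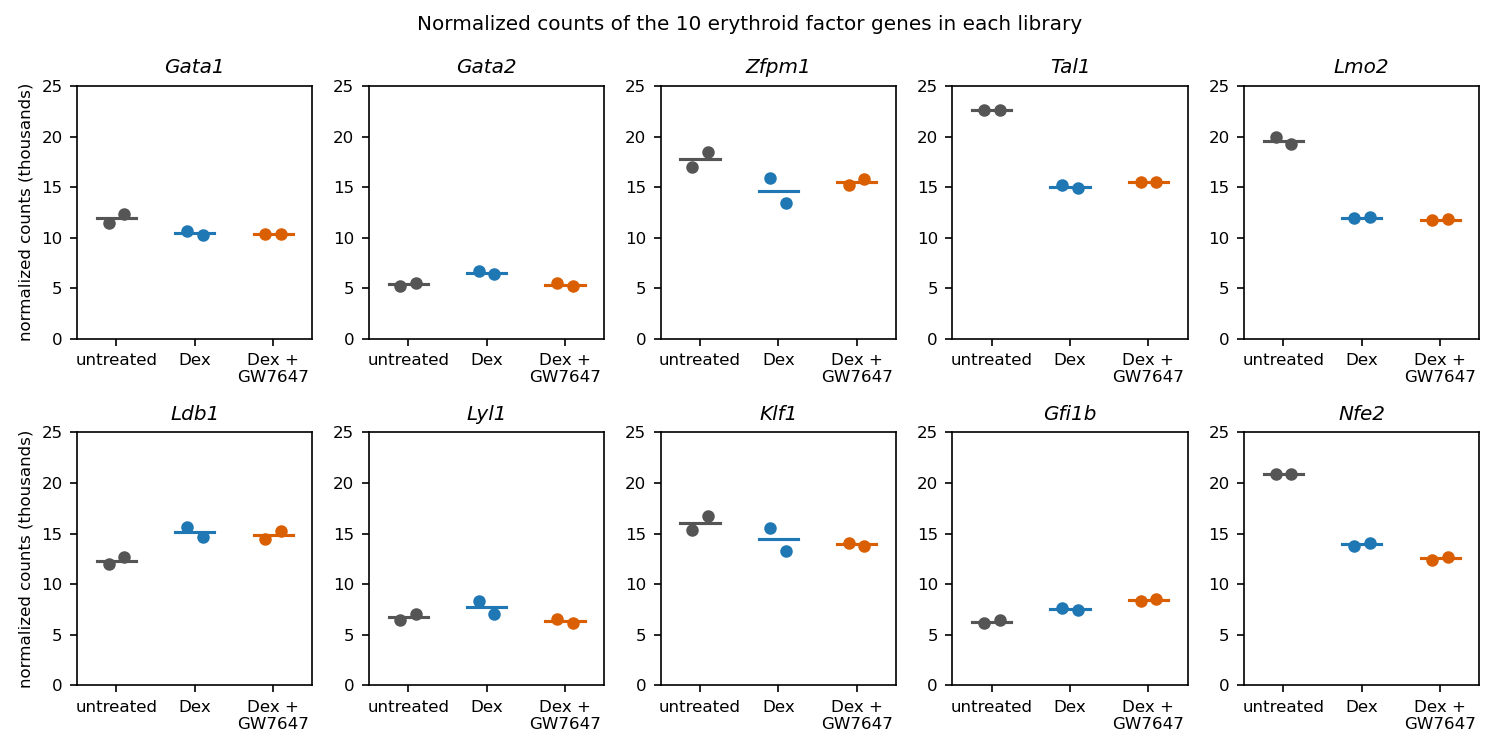
Normalized counts (linear axis from 0, scaled as its label says) of the 10 genes in each library, with 1 point per library and a bar at the mean of 2. The untreated points of Tal1, Lmo2 and Nfe2 lie well above the treated ones, and the Dex points of Gata2 lie above those of the other groups.

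The start sites of 8 members were found in RefSeq tables for build GRCm38.p6, as 12 windows of 300 bases from 250 before to 50 after a start. Lmo2 and Nfe2 had no entry. Windows are shown for 6 members: Tal1, Klf1 and Gfi1b because they hold a GATA motif, the leading factor Gata1 for comparison, and Gata2 and Lyl1 because each was the other's nearest member by profile over the libraries. Capitals mark GATAA, the core bound by GATA factors, and CCNCNCCC, a form of the CACCC motif bound by KLF1, each on either strand (so TTATC and runs of G are the reverse strand). The windows lie at chr4:115056176-115056475 (plus strand) for Tal1, chr8:84901732-84902031 (plus) for Klf1, chr2:28621933-28622232 (minus) for Gfi1b, chrX:7967861-7968160 (minus) for Gata1, chr6:88198414-88198713 (plus, the downstream of 2 starts) for Gata2, and chr8:84701207-84701506 (plus) for Lyl1.
Tal1: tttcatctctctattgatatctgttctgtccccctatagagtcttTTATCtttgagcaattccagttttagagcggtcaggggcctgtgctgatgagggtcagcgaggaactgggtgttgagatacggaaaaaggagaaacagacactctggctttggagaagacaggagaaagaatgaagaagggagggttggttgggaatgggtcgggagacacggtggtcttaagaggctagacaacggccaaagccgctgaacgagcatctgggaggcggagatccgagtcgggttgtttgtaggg
Klf1: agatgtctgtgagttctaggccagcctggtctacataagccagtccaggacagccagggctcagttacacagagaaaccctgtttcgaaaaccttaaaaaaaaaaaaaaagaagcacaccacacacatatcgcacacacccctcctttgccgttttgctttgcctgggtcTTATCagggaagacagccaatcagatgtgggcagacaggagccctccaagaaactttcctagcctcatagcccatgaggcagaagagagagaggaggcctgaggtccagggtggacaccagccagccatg
Gfi1b: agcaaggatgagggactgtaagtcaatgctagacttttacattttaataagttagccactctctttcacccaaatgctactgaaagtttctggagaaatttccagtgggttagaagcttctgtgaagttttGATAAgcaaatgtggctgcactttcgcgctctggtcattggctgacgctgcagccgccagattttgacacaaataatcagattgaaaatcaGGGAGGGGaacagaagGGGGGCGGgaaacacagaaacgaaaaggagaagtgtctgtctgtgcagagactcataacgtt
Gata1: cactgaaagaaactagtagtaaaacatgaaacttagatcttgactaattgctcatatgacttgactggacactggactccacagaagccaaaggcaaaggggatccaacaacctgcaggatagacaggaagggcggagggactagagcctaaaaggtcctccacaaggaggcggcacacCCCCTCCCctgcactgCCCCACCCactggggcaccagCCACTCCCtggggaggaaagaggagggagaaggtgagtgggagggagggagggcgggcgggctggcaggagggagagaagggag
Gata2: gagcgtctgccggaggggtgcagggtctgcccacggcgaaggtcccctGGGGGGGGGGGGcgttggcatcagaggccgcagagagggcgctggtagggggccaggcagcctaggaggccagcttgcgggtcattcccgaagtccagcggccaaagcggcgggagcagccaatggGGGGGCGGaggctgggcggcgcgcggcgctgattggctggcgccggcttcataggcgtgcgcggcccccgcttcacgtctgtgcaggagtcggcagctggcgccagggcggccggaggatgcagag
Lyl1: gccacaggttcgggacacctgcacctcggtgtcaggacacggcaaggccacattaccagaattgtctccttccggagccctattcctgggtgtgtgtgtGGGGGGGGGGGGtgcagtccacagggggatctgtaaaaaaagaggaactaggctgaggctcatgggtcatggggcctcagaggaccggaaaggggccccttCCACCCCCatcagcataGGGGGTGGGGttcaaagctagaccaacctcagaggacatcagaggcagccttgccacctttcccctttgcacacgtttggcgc
GATAA was found in 4 of the 12 windows, against 25.4% of all 32851 windows in the table. It stood 205 bases before the upstream of 2 starts in Tal1 and 80 before the start in Klf1. In Gfi1b it stood 119 before the start, and an E-box (CANNTG) begins at 113 before the start, just after the GATAA letters. The remaining window with GATAA was 1 of 3 of Ldb1. The windows of Gata1, Gata2, Lyl1 and Zfpm1 and the downstream window of Tal1, which is not shown, held no GATAA. CCNCNCCC was found in 10 of 12 windows (not in those shown for Tal1 and Klf1) against 49.5% of all, and in the Gata2 and Lyl1 windows shown many of its overlapping matches fall in 1 run of G. CANNTG was in 7 of 12 against 72.3%, and TGANTCA, the core of the NF-E2 motif, was in 0 (7.81% of all windows). A CANNTG match can overlap the other motifs, and matches are letters in a window and not measured binding.

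Among the members, levels were compared per length of exon, as RPKM (reads per kilobase of exon, scaled to library size) from exon unions of GENCODE M21, whose build is later than that of the counts. In untreated cells Klf1 was highest, at 232 and 252 in the 2 libraries, then Lmo2 at 212 and 205, Nfe2 at 161 in both, Tal1 at 119 in both, Zfpm1 at 112 and 122, and Gata1 at 109 and 117. The range of Zfpm1 overlapped those of both Tal1 and Gata1, which did not overlap each other, and with the longest transcript Gata1 (139 and 150) stood above Tal1 (124 in both). Lyl1 stood at 82.0 and 90.2, Gfi1b at 77.2 and 81.1, Ldb1 at 59.7 and 63.5, and Gata2 lowest at 22.3 and 23.6. With Dex, Klf1 stayed highest (234 and 200), Lmo2 was next (127 and 128) and Gata2 stayed lowest (28.4 and 27.1), while the ranges of Lyl1 (107 and 90.2) and Zfpm1 (104 and 88.2) each overlapped those of Gata1 (101 and 96.7) and Gfi1b (96.0 and 93.8). Nfe2 (106 and 109) overlapped Lyl1 as well. With both drugs, Gfi1b (105 and 107) stood above Nfe2 (95.6 and 98.0), while in untreated cells it stood well below. Scaled by the longest transcript instead, Gata2 was again lowest in all groups, and Lmo2, Nfe2 and Klf1 were again the top 3 in untreated cells but in the order Lmo2, Nfe2, Klf1, and with both drugs Nfe2 (152 and 156) was above Gfi1b, so the order of these genes depends on the length used.

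**Figure D2:**
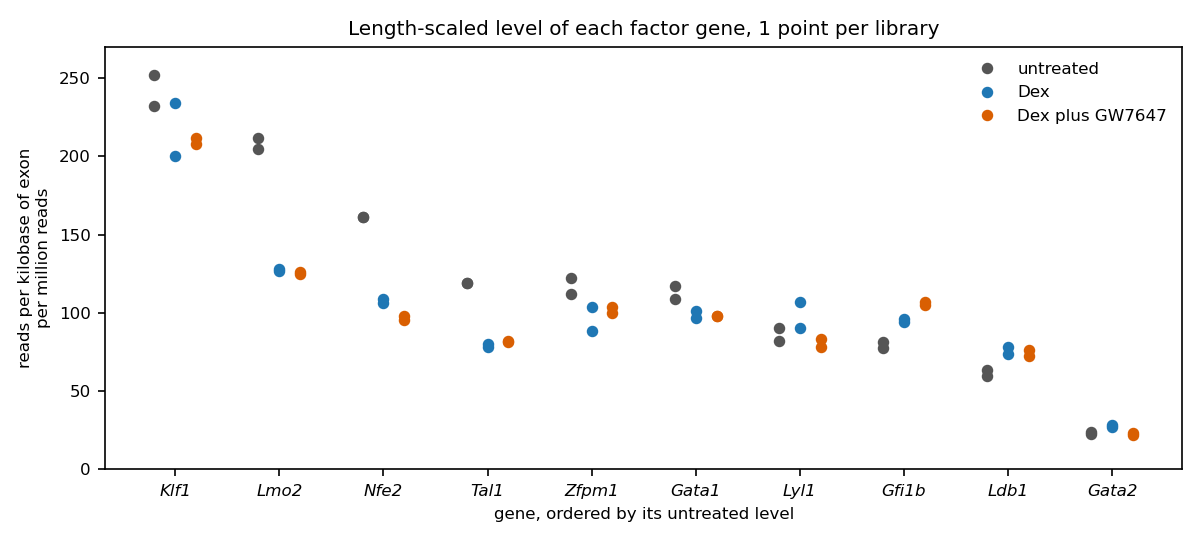
Level per length of exon union (RPKM, linear axis from 0) of each gene in each library, ordered by untreated level, with 1 point per library coloured by group. Klf1 is highest and Gata2 lowest in all groups, and the drop of Lmo2, Nfe2 and Tal1 in treated libraries narrows the range among the middle genes.

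The comparison of Dex with untreated cells asks how these factors differ with Dex, which cannot be told apart from a difference in culture time. Of the 10 members 8 were called (80%), 3 higher and 5 lower, against 51.6% of the 14125 tested genes (25.5% higher and 26.0% lower). Among the 1441 tested genes whose mean lay within the members' own range, 5734 to 17731 normalized counts, 55.7% were called. The median size of the log2 difference was 0.274 for members, 0.267 for all genes and 0.158 for those 1441 genes, and the signed medians were -0.173 for members and 0.00955 for all genes. Groups did not overlap for 9 members, against 73.0% of all genes. Scaling by library totals in place of TMM raised the median of all genes by 0.13, giving 4 members higher and 3 lower, beside 5451 genes higher and 2584 lower in place of 3606 and 3677. DESeq2 called all 10 members, 4 higher and 6 lower.

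Gata1, the leading factor of the lineage, had 11483 and 12377 normalized counts in untreated libraries, 10663 and 10226 with Dex, and 10374 and 10348 with both drugs. Untreated libraries were above all treated ones, by a small margin. Gata1 fell by 0.19 ± 0.05 (SE) on the log2 scale with Dex (adjusted p = 0.01). Leaving out replicate 2 of untreated cells ended this call (adjusted p = 0.0871), as did library totals (adjusted p = 0.331).

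Gata2, which maintains earlier progenitors and is needed for mast cells, had 5235 and 5536 in untreated libraries, 6646 and 6346 with Dex, and 5471 and 5172 with both drugs. Both Dex libraries lay above all 4 others. Gata2 rose 1.21-fold with Dex (log2 0.27 ± 0.05, adjusted p = 0.00181). Summed mast cell and basophil markers were likewise highest in Dex libraries, although 6 of the 8 measured ones were lower and 2 higher. Hdc, the enzyme that makes histamine, made up most of that sum in the treated groups but not in untreated cells, with 1749 ± 0.779 normalized counts untreated, 8683 ± 277 with Dex and 5030 ± 64.6 with both drugs (SD, n = 2). Mcpt4 and Fcer1a, markers of mature mast cells, averaged 20.1 and 4.69 normalized counts untreated and were near 0 already with Dex (0.469 and 0.386). They were at 0 in both libraries with both drugs. The part of mast cell content in the Gata2 difference was not tested.

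The ratio of Gata1 to Gata2 within a library does not depend on scaling. It was 2.19 and 2.24 in untreated libraries, 1.60 and 1.61 with Dex, and 1.90 and 2.00 with both drugs, so the 3 groups did not overlap. The log2 ratio differed by -0.46 with Dex against untreated, by 0.28 with GW7647 added to Dex, and by -0.19 with both drugs against untreated (exact permutation test, two-sided p = 0.333 each, the smallest that 2 against 2 libraries can give).

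Zfpm1, the GATA1 cofactor FOG1, had 17005 and 18489 in untreated libraries, 15876 and 13404 with Dex, and 15157 and 15775 with both drugs. The Dex replicates were farther apart than those of the other groups. Zfpm1 fell by 0.28 ± 0.08 with Dex (adjusted p = 0.012), and by 0.17 without replicate 2 of Dex. Leaving out replicate 2 of untreated cells ended this call (adjusted p = 0.0809), as did library totals (adjusted p = 0.135).

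Tal1, the basic helix-loop-helix factor at the centre of the complex, had 22599 and 22654 in untreated libraries, 15199 and 14890 with Dex, and 15539 and 15506 with both drugs. Treated libraries were about level with each other and far below untreated ones. Tal1 fell by 0.59 ± 0.04 with Dex (adjusted p = 2.06e-06).

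Lyl1, its relative that can take its place in early progenitors, had 6401 and 7043 in untreated libraries, 8366 and 7048 with Dex, and 6519 and 6107 with both drugs. Dex replicate 2 lay next to untreated replicate 2, and replicate 1 stood above both. Its log2 difference with Dex was 0.20 ± 0.08 (adjusted p = 0.065), which passed without Dex replicate 2 (adjusted p = 0.00328) or untreated replicate 2 (adjusted p = 0.0478) and stood at 0.07 without Dex replicate 1. It also passed with library totals (log2 0.33, adjusted p = 0.00752), with genes of any count kept in edgeR (adjusted p = 0.00035) and in DESeq2 (adjusted p = 0.0399). Exons of Lyl1 overlap those of Nfix on the opposite strand by 4 bases. Tal1 to Lyl1 ratios were 3.53 and 3.22 in untreated libraries, 1.82 and 2.11 with Dex, and 2.38 and 2.54 with both drugs, a ratio chosen after the values were seen.

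**Figure D3:**
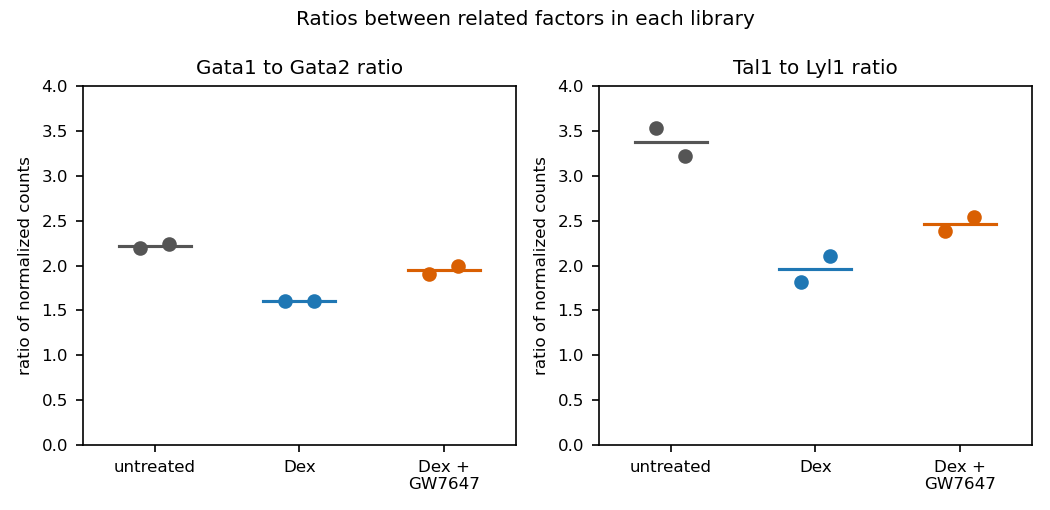
Ratios of normalized counts of Gata1 to Gata2 and of Tal1 to Lyl1 (linear axis from 0), 1 point per library and a bar at the mean of 2. In both ratios the untreated libraries are highest, the Dex libraries lowest and those with both drugs in between, with no overlap between groups.

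The genes of the LIM-only and the LIM-binding protein of the complex moved in opposite directions. Lmo2, the LIM-only adaptor, had 19907 and 19248 in untreated libraries, 11915 and 12038 with Dex, and 11708 and 11829 with both drugs, and fell by 0.71 ± 0.04 with Dex (adjusted p = 6.86e-07). Treated libraries were all within a narrow range and far below untreated ones. Ldb1, the LIM-binding protein that joins with itself to loop enhancers to promoters, had 11933 and 12689 in untreated libraries, 15597 and 14655 with Dex, and 14479 and 15207 with both drugs. Ldb1 rose 1.23-fold with Dex (log2 0.30 ± 0.05, adjusted p = 0.00109). Pprc1, on the opposite strand, shares 3.84% of Ldb1's exon bases, and whether counting used strand is not stated.

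Klf1 had 15379 and 16724 in untreated libraries, 15530 and 13298 with Dex, and 14075 and 13812 with both drugs. Dex replicate 1 lay inside the untreated range, and the groups overlapped. The log2 difference with Dex was -0.15 ± 0.07 (adjusted p = 0.0984), and with library totals it was -0.02. It was -0.27 without Dex replicate 1 and -0.06 without Dex replicate 2. It passed with genes of any count kept in edgeR (adjusted p = 0.0337) and in DESeq2 (adjusted p = 0.0481). Dex replicate 1 was also the library with the lowest mitochondrial share, 1.72%, whose part in the Klf1, Lyl1 and Zfpm1 values was not tested.

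Gfi1b, a repressor that recruits the demethylase KDM1A and its partner RCOR1, had 6133 and 6441 in untreated libraries, 7626 and 7445 with Dex, and 8334 and 8470 with both drugs. The 3 groups did not overlap, with untreated libraries lowest and those with both drugs highest. Gfi1b rose 1.20-fold with Dex (log2 0.26 ± 0.05, adjusted p = 0.00108). Nfe2, the large subunit of NF-E2, had 20897 and 20862 in untreated libraries, 13770 and 14076 with Dex, and 12395 and 12708 with both drugs. Its groups ran in the reverse order, again with no overlap. Nfe2 fell by 0.58 ± 0.04 with Dex (adjusted p = 2.49e-06). Megakaryocytes also express several members, among them Nfe2, Gfi1b, Tal1 and Gata1. With Dex, 10 of 12 megakaryocyte markers were lower and 0 higher, while 5 of the 10 members were lower and 3 higher. The sort had depleted CD41 positive cells, which include megakaryocytes. Itga2b, which encodes CD41, had 9722 ± 203 normalized counts untreated and 8973 ± 765 with Dex (SD, n = 2). With both drugs it had 5969 ± 5.62. The part of megakaryocytes in these differences was not tested.

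The comparison of Dex plus GW7647 with Dex asks what the PPARα agonist adds. Gata2 alone was called, 1 of 10 members (10%), beside 9.73% of all 14125 genes (2.15% higher and 7.58% lower) and 7.43% of genes within the members' range, so the count is near the background. Gata2 fell by 0.29 ± 0.05 (adjusted p = 0.00742), and both libraries with both drugs were below both Dex libraries. The call was lost without Dex plus GW7647 replicate 2 (adjusted p = 0.117), a setting that also took the calls over all genes from 1374 to 618, and without replicate 1 of that group they numbered 548. In the authors' deposited table Gata2 was likewise the only member under 0.05 (adjusted p = 0.000981). The Dex libraries enter both this comparison and that with untreated cells, so the rise and the fall of Gata2 are not independent of each other. Of the 8 measured mast cell and basophil markers 7 fell as well, and their part in the fall of Gata2 was not tested.

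The other 9 members did not pass. Lyl1 had the same size of difference as Gata2 with a larger error (log2 -0.29 ± 0.08, adjusted p = 0.0527), and it passed without Dex replicate 2 (adjusted p = 0.00336) and was -0.16 without Dex replicate 1 (adjusted p = 0.202). Nfe2 was at -0.15 ± 0.04 (adjusted p = 0.0599) and Gfi1b at 0.16 ± 0.05 (adjusted p = 0.0652), and in both the Dex libraries and those with both drugs did not overlap. Groups did not overlap for 6 of 10 members, against 53.5% of all genes. Gata1, Klf1, Ldb1, Lmo2, Tal1 and Zfpm1 had log2 differences between -0.05 and 0.08, each under 2 SE from 0.

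Against untreated cells, the group with both drugs had 7 members called, 2 higher and 5 lower, beside 49.7% of all genes (24.7% higher and 25.1% lower) and 50.2% of genes within the members' range. Groups did not overlap for 8 members, against 76.2% of all genes. With library totals 5 members were called, 2 higher and 3 lower, beside 5480 genes higher and 2719 lower in place of 3486 and 3539. These values share the untreated libraries with the Dex comparison. Lmo2 and Nfe2 each fell by 0.73 ± 0.04 (adjusted p = 6.13e-07 and 5.75e-07), and Tal1 fell by 0.54 ± 0.04 (adjusted p = 3.76e-06). Gfi1b rose 1.34-fold (log2 0.42 ± 0.05, adjusted p = 4.98e-05) and Ldb1 rose 1.21-fold (adjusted p = 0.0021). Gata1 fell by 0.20 ± 0.05 (adjusted p = 0.00773), a call lost with library totals (adjusted p = 0.19) and without replicate 2 of untreated cells or either library with both drugs (adjusted p up to 0.0703). Klf1 also fell by 0.20, with an SE of 0.07 (adjusted p = 0.0393), a call lost with library totals (adjusted p = 0.363), with the replicate block, and without replicate 2 of untreated cells or either library with both drugs (adjusted p up to 0.218). Zfpm1 did not pass (log2 -0.20 ± 0.08, adjusted p = 0.0532), though it did in 7 of 13 alternative fits. Gata2 was at -0.02 ± 0.05 (adjusted p = 0.816), turning to 0.10 with library totals, and Lyl1 at -0.09 ± 0.08 (adjusted p = 0.388), turning to 0.03. By adjusted p in the authors' deposited table, the members under 0.05 numbered 8, those called here and Zfpm1.

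**Figure D4:**
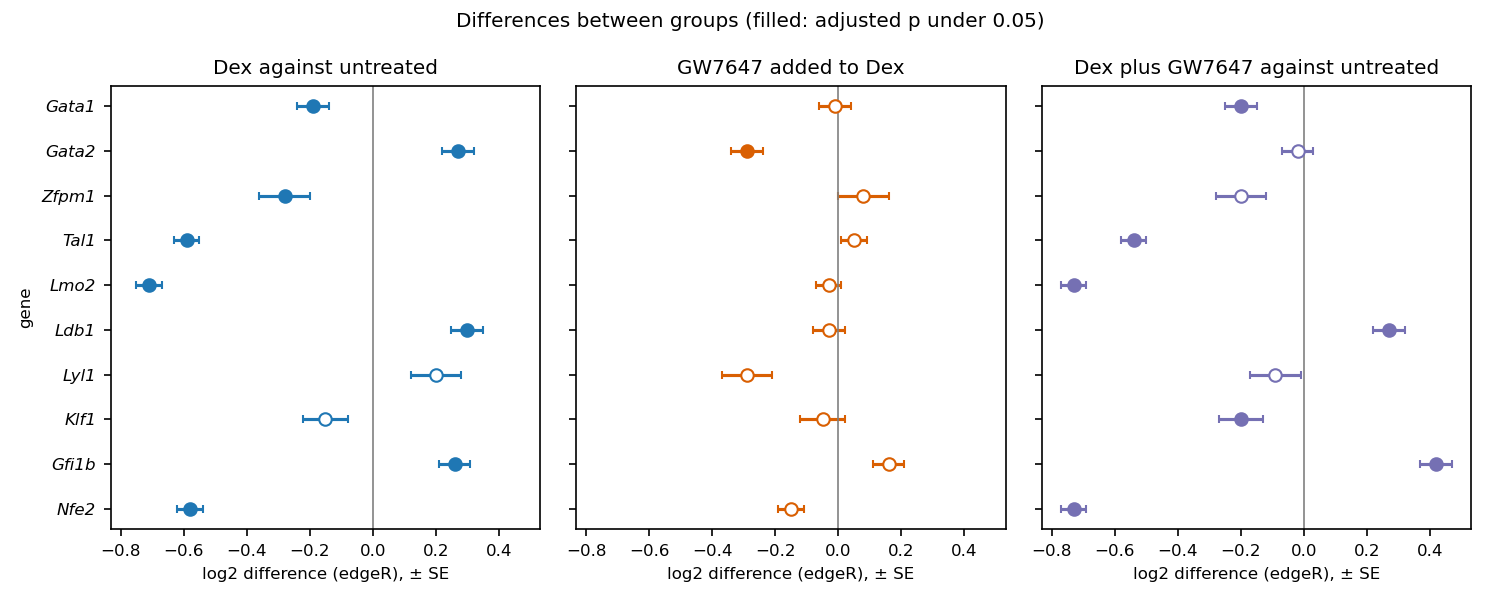
Log2 difference ± SE of each gene in the 3 comparisons (edgeR, linear axis), filled where the adjusted p was under 0.05. With GW7647 added to Dex the 1 filled point is Gata2, and both comparisons with untreated cells share the untreated libraries; under library totals the values for Gata2 and Lyl1 with both drugs against untreated change sign.

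The 4 lists of related genes were then described by counts and medians. They were chosen with earlier results of these data known, so they are no independent evidence. Over all genes tested, 25.5% rose and 26.0% fell with Dex, and 2.15% rose and 7.58% fell with GW7647 added to Dex, with median log2 differences of 0.00955 and 0.00134. Of 33 partners and corepressors of the complexes, all measured, 8 rose and 16 fell with Dex (median log2 -0.05), and with library totals 14 rose and 10 fell. The small MAF partners of NFE2 differed: Mafk fell from 9199 ± 44.6 to 5234 ± 195 normalized counts and Mafg from 14052 ± 949 to 8080 ± 507, while Maff rose 10.4-fold from a low level, 144 ± 1.06 to 1492 ± 87.0 (adjusted p = 1.93e-09). The core binding factor subunits also differed, with Runx1 falling from 3200 ± 48.0 to 1989 ± 17.7 and Cbfb rising 1.99-fold to 5324 ± 121. The E protein genes Tcf3, Tcf12 and Tcf4, whose products pair with TAL1, were at log2 differences of -0.05, 0.06 and -0.04 and did not pass; they are named here for that role, after their values were seen. With GW7647 added to Dex, edgeR called 0 of the 33, with 6 at an unadjusted p under 0.05, and DESeq2 and limma-trend also called 0.

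Of 17 relatives from the same families, 7 were measured, and with Dex 1 rose and 4 fell (median log2 -0.29). Gata4, Gata5, Gata6 and Ldb2 had 0 counts in all libraries, and Gata3 had 16 over all 6. Nfe2l1, a relative of Nfe2, fell from 7068 ± 130 to 3941 ± 129, and Klf3, a repressor that KLF1 activates, fell from 3897 ± 76.0 to 2115 ± 23.5. Gfi1, the relative of Gfi1b used in granulocyte and lymphoid precursors, had 174 and 197 normalized counts in untreated libraries, 198 and 218 with Dex, and 107 and 82.7 with both drugs. It fell with GW7647 added to Dex (log2 -1.11 ± 0.15, adjusted p = 0.00134), and 9 of 10 granulocyte and monocyte markers were lower in that comparison, whose part in this fall was not tested.

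Of 32 erythroid genes known to be activated by these factors 30 were measured, and 24 fell and 1 rose with Dex, with a median log2 difference of -0.80, beside 24 lower and 2 higher with both drugs (median -0.77). Dmtn, a membrane skeleton protein, fell from 9955 ± 222 to 3074 ± 107 (log2 -1.69 ± 0.05, adjusted p = 8.58e-09), and Epb41, another protein of that skeleton, fell from 88770 ± 88.6 to 42613 ± 628. Rhag, the Rh-associated glycoprotein, was the gene that rose with Dex (log2 0.59), and Epor, the erythropoietin receptor, was at 0.02 (adjusted p = 0.813); both were named after their values were seen. With library totals 3 rose and 22 fell. The median over this list lay below that of the 10 factors, -0.173, and the lists were not tested against each other. With GW7647 added to Dex, 3 rose and 1 fell, among them Uros, an enzyme of heme synthesis (log2 0.20 ± 0.05), and Hbb-bt, an adult beta globin (log2 -0.36 ± 0.08). These counts depended on the method, since DESeq2 called 6 of the 30 in that comparison and limma-trend 2.

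Of 10 early genes known to be repressed by GATA1, 3 rose and 5 fell with Dex (median log2 -0.15, beside 0.00955 for all genes, of which 25.5% rose and 26.0% fell). Spi1, the myeloid factor PU.1, rose 3.92-fold and Hhex, a homeobox gene, rose 2.04-fold. With GW7647 added to Dex, 3 of the 10 fell, against 7.58% of all genes. Among them were Spi1, from 2595 ± 213 to 1407 ± 4.69, and Cd34, a surface protein of early progenitors, from 259 ± 5.05 to 174 ± 11.8. With both drugs Spi1 was still above its untreated level (log2 1.09 ± 0.07, adjusted p = 1.59e-06). In the GW7647 comparison 9 of 10 granulocyte and monocyte markers were lower too, and their part in these falls was not tested.

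**Figure D5:**
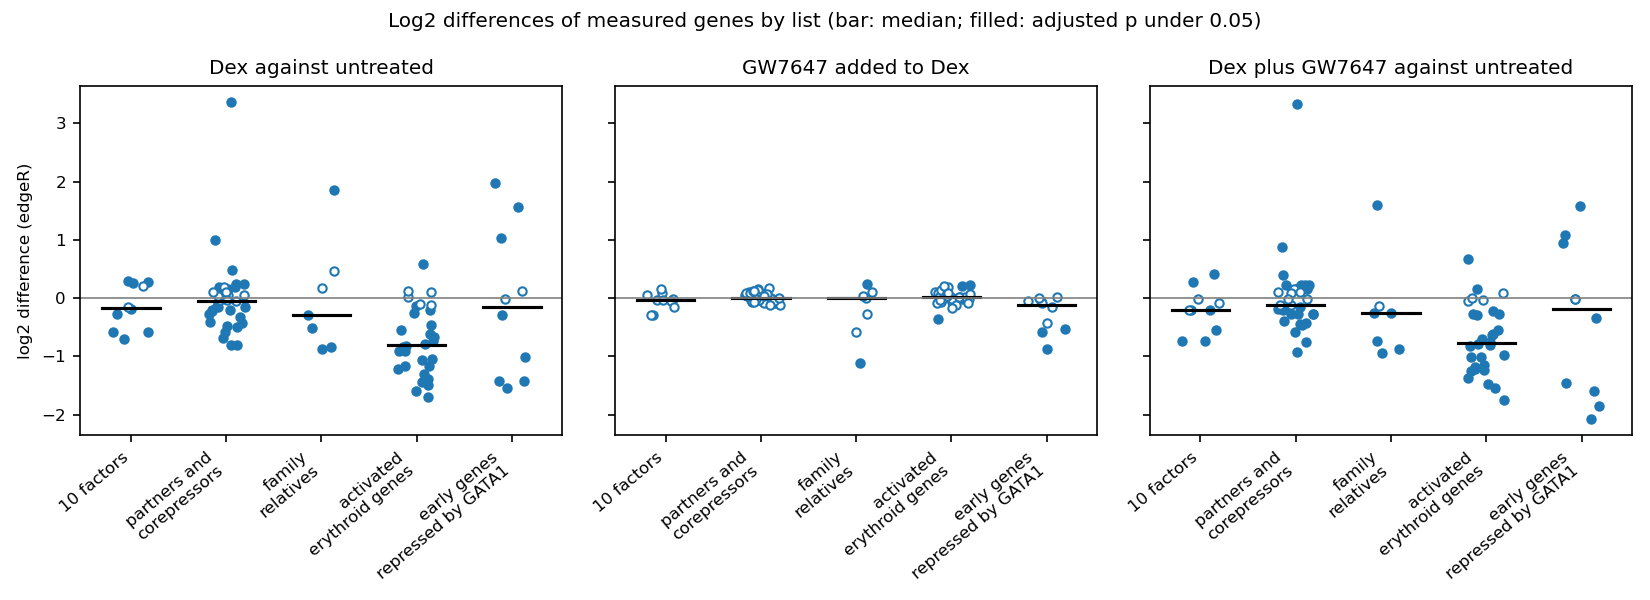
Log2 differences (edgeR) of the measured genes of the 10 factors and 4 lists in the 3 comparisons, 1 point per gene, filled where the adjusted p was under 0.05, with a bar at the list median. In both comparisons with untreated cells the activated erythroid genes have the lowest median (-0.80 and -0.77); the partner list splits 8 higher to 16 lower with Dex here but 14 to 10 under library totals.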

How the data were processed

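Per the submitters' processing notes, reads were processed with TopHat 1.4.1, HTSeq and DESeq on builds mm9 and NCBIM37. Strand setting is not given in the sources used here. The 2 deposited tables hold whole-number read counts of 37620 Ensembl genes per library, with identical counts for the shared libraries, and the authors' adjusted p-value per gene. Symbols were joined by identifier from GENCODE M21 names (32897 genes, 87.45%).

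Counts of all 6 libraries were fitted with edgeR 4.0.16 in R 4.3.3 (filterByExpr, minimum count 10, TMM, quasi-likelihood test, threshold 0.05), keeping 14125 genes with 99.971% of counts. Alternatives used DESeq2 1.42.0, limma 3.58.1 (limma-trend), library totals, other filters, a replicate block, the 4 libraries compared and each library left out. The edgeR test recovered 81.6% of simulated 2-fold and 55.7% of 1.5-fold changes for Dex against untreated (14041 genes) when tested on simulated data. For 1.5-fold changes it recovered 44.4% for GW7647 added to Dex and 48% for both drugs against untreated. The simulation used a dispersion of 0.01 for all genes and 200 changed genes, whereas 7283 were called with Dex. These rates therefore do not give the chance of calling a member. Exon lengths came from GENCODE M21 (GRCm38), a later build. Named genes were the 10 members and up to 5 called genes with the smallest p per list and comparison, plus those said to be chosen after their values were seen. The members and lists were chosen with earlier results of these data known. Values of some single genes in these lists are not reported here.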

Additional observations from a re-analysis of the deposited data

How the results depend on the processing

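Over 13 alternative fits, 6 of 10 members kept their side of the threshold and direction in all fits with Dex against untreated (Gata2, Tal1, Lmo2, Ldb1, Gfi1b and Nfe2), 3 with GW7647 added to Dex (Tal1, Lmo2 and Gfi1b) and 5 with both drugs against untreated (Tal1, Lmo2, Ldb1, Gfi1b and Nfe2). With GW7647 added to Dex, the number of members called was 2 with library totals or a mean of at least 50 counts, 3 with genes of any count or DESeq2, and 0 to 2 with 1 library left out. All calls there numbered 2085 with genes of any count and 548 to 1729 with 1 library left out, the lowest without Dex plus GW7647 replicate 1. The members beyond Gata2 were Nfe2, Lyl1 or both, and the cause was not tested. By rank per length in untreated cells, 1 of 10 members kept its place with the longest transcript, since unions of exons are longer by unequal amounts.

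Signs turned only for differences that were not called. With GW7647 added to Dex and 1 library left out, log2 differences ran from -0.03 to 0.02 for Gata1, -0.06 to 0.02 for Ldb1, -0.15 to 0.07 for Klf1 and -0.03 to 0.21 for Zfpm1. With both drugs against untreated, Gata2 was at 0.10 with library totals and 0.00 with genes of any count, and ran from -0.06 to 0.03 with 1 library left out, and Lyl1 was at 0.03 with library totals. A fit that leaves 1 library in a group assumes that it varies like the others.

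With the replicate block, members called were 8, 1 and 6 in the 3 comparisons, and all calls 6824, 998 and 6523. The call it changed was that of Klf1 with both drugs against untreated. Deviations of same-numbered libraries correlated across genes at -0.2 for Dex and untreated, 0.134 for Dex with and without GW7647, and -0.0394 for both drugs and untreated, and the labels do not say that numbers mark a shared source. Crossing the untreated numbers, chosen after seeing the data, gave 10 members and 8044 genes called with Dex against untreated. Depth did not limit the members, which had at least 4282 counts in a library, whereas 2 libraries a group limit every test.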

Other observations

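Genes with profiles most like those of the factors were listed by Euclidean distance between log2 normalized counts centred over the 6 libraries, among the 10446 genes that averaged 100 normalized counts or more. These are descriptions of 6 libraries, with no test. The nearest to Gata1 was 1110038B12Rik at 0.0369, to Gata2 Edem1 at 0.0638, to Zfpm1 Samd14 at 0.0382, to Tal1 Inafm2 at 0.0371 and to Lmo2 Vwa8 at 0.0558. The nearest to Ldb1 was Ppp1r10 at 0.0305, to Lyl1 Atp8b2 at 0.101, to Klf1 Elmod3 at 0.0569, to Gfi1b Pi4ka at 0.0383 and to Nfe2 Dock8 at 0.0583. Among the members themselves, Gata1 and Klf1 were nearest each other (0.123), as were Lmo2 and Nfe2 (0.148), Gata2 and Lyl1 (0.16), and Ldb1 and Gfi1b (0.202), while Lmo2 and Gfi1b were farthest apart (1.24). Many other genes lay nearer than these partners, 57 for Gata2 and 21 for Lyl1, so the pairs do not stand out among all genes. Edem1, which directs misfolded proteins out of the endoplasmic reticulum, had 2982 normalized counts in untreated cells, 3492 with Dex and 2962 with both drugs, the same rise and return as Gata2.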
